A study of Mus musculus with 12 samples.

Results

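Amino acids cross cell membranes through carriers of the solute carrier (SLC) superfamily, and 7 of its families that move amino acids and related molecules were followed through the first steps of endoderm differentiation. Genes whose symbol places them in SLC1, SLC3, SLC6, SLC7, SLC36, SLC38 or SLC43 and ends in a number were taken by symbol alone. Symbols ending in a letter, as in Slc6a20a and Slc6a20b, were not taken. The members were 61 of the 54446 genes in the deposited table. They comprise 7 genes of SLC1, 2 of SLC3, 19 of SLC6, 15 of SLC7, 4 of SLC36, 11 of SLC38 and 3 of SLC43. The samples were SOX17+ cells, SOX17+/T+ (double-positive) cells and T+ cells, all differentiated from mouse embryonic stem cells and sorted by reporter expression, and undifferentiated mESC. Every group derived from the E14 line and had 3 libraries. T (Brachyury) marks the primitive streak and nascent mesoderm, and SOX17 is an endoderm transcription factor. The mESC were grown over irradiated embryonic fibroblasts in medium with serum, LIF, 2 mM glutamine, 100 µM non-essential amino acids and 80 µM beta-mercaptoethanol. No source used here names the medium of differentiation, so cell state and medium cannot be told apart in any comparison with mESC.

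Each family has its own mode of transport. SLC1 carriers take up glutamate or exchange small neutral amino acids, SLC7 carriers move cationic and large neutral amino acids, and SLC38 carriers are sodium-coupled importers of glutamine, alanine and their relatives. Several SLC7 proteins are light chains that reach the cell surface only when bound to an SLC3 heavy chain. SLC6 carriers serve amino acids, neurotransmitters, taurine and creatine, SLC36 includes carriers coupled to protons, and SLC43 includes facilitators of large neutral amino acids. Embryonic stem cells depend on amino acid supply for growth and for signalling through mTORC1, and ATF4 is the transcription factor that induces many carriers and biosynthetic enzymes when amino acids are scarce.

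The summed levels of marker genes followed the labels of the libraries, with some single genes going the other way. Of the list of 8 naive pluripotency genes, the summed level was 68.0 to 77.2 TPM (a transcript level scaled for transcript length and for library total) in SOX17+, 55.2 to 67.2 in SOX17+/T+, 60.3 to 64.0 in T+ and 1953 to 1962.5 TPM in mESC libraries. The 10 definitive endoderm genes summed to 2045 to 2180 TPM in SOX17+, 1524 to 1555 in SOX17+/T+, 444 to 559 in T+ and 125 to 133 TPM in mESC libraries. Krt8 and Krt18, 2 epithelial keratins, made up most of that sum in SOX17+ (means of 662 and 823 TPM), while Cxcr4 averaged 37.2 TPM in SOX17+, 53.4 in SOX17+/T+, 65.1 in T+ and 2.75 TPM in mESC. By the limma test given below, 7 of the 10 were higher and 2 lower in SOX17+ than in T+ (25.4% and 29.0% of all tested genes). Against SOX17+/T+, 6 were higher and 3 lower in SOX17+ (19.8% and 16.8% of all tested genes). The 10 primitive streak genes summed to 48.1 to 66.3 TPM in SOX17+, 179 to 238 in SOX17+/T+, 436 to 520.5 in T+ and 10.5 to 11.97 TPM in mESC libraries. By the same test, 8 of these 10 were lower and 1 higher in SOX17+ than in T+ (29.0% and 25.4% of all tested genes). Markers of other cells also differed. The 14 fibroblast genes summed to 77.0 to 81.0 TPM in SOX17+, 79.2 to 91.8 in SOX17+/T+, 114 to 130.4 in T+ and 2938 to 3658 TPM in mESC libraries, which had been grown with feeders. SOX17+ libraries carried the most RNA of 8 erythroid genes (93.5 to 240.5 TPM, against 9.15 to 17.6 in SOX17+/T+, 2.23 to 3.52 in T+ and 0.938 to 1.30 TPM in mESC libraries). They were also highest for 10 extraembryonic endoderm genes (126 to 136 TPM, against 16.4 to 18.9 in SOX17+/T+, 8.54 to 9.20 in T+ and 35.99 to 41.1 TPM in mESC libraries) and for 8 endothelial genes (64.7 to 79.4 TPM, against 41.5 to 45.0 in SOX17+/T+, 35.3 to 39.8 in T+ and 39.1 to 39.4 TPM in mESC libraries). The part of these other cells in any transporter result was not tested. In bulk RNA, fewer cells of a type and less RNA per cell cannot be told apart.

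ATF4 and its partners bind a composite element, here written TGATGNAA and called CARE (C/EBP-ATF response element), and the 3 transporters below hold these letters in a 300-base window around a RefSeq start (GRCm38.p6, 250 bases before to 50 after). They are shown because genes of the ATF4 programme are followed further on. Capitals mark the CARE letters on either strand, each sequence being on the gene's own strand, which is the minus strand in all 3. The windows are chr11:20332664-20332963 for Slc1a4, chr14:54417895-54418194 for Slc7a7 and chr3:50443564-50443863 for Slc7a11.
Slc1a4: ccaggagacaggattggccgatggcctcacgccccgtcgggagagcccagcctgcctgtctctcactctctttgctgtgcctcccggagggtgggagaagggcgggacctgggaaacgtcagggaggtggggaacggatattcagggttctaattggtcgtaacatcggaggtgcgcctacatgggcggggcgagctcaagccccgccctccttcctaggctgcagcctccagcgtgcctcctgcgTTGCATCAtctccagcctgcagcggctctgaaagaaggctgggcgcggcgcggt
Slc7a7: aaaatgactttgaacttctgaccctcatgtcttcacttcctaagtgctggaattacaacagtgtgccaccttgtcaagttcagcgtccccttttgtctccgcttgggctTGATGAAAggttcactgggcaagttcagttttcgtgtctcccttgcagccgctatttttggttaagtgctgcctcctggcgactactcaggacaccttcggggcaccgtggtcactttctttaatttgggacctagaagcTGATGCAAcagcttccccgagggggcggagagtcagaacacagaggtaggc
Slc7a11: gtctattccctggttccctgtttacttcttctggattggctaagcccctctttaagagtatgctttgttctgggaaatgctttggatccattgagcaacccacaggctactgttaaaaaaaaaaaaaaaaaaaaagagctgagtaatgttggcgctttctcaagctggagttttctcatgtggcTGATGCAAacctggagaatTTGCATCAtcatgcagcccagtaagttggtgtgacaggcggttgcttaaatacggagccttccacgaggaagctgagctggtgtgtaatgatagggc
The first base of the match lay 4 bases before the start in Slc1a4, 141 and 1 bases before it in Slc7a7, and 66 and 47 bases before it in Slc7a11. No match overlapped an E-box (CACGTG) or an antioxidant response element (TGACNNNGC), the other motifs searched. RefSeq windows were held for 43 of the 61 members, 64 windows in all, and 4 of the 43 had a CARE match, the other being Slc6a21. Of all 32851 windows, 3.97% held a CARE match, 7.15% an E-box and 12.4% an antioxidant response element. Of the 64 member windows, 5 held a CARE match, 9 an E-box and 11 an antioxidant response element. The CARE windows include a further Slc7a7 window (chr14:54417653-54417952) that overlaps the one printed. Both hold the same TGATGCAA site, which is therefore counted in each. From the start of the further window that site lies 243 bases before it. A match of letters is a description of the sequence and shows no binding.

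Transporter RNA was concentrated in few genes. The 61 members summed to 1117 ± 14.9 TPM in SOX17+, 1082 ± 9.24 in SOX17+/T+, 1106 ± 16.0 in T+ and 1372 ± 12.9 TPM in mESC libraries (SD, n = 3 each). The 6 most abundant members of each group held 64.2% ± 0.159 of that sum in SOX17+, 67.0% ± 0.49 in SOX17+/T+, 67.6% ± 0.164 in T+ and 64.4% ± 0.75 in mESC. They were Slc3a2, Slc38a4, Slc7a5, Slc38a2, Slc6a6 and Slc38a1 in each sorted group, and in mESC Slc7a3 and Slc7a7 stood in place of Slc6a6 and Slc38a1. SLC7 made up 28.2% ± 0.732 of the members' sum in SOX17+, 23.8% ± 0.319 in SOX17+/T+, 18.8% ± 0.349 in T+ and 34.5% ± 0.447 in mESC. The SLC38 share was 32.9% ± 1.17 in SOX17+, 36.7% ± 0.918 in SOX17+/T+, 41.8% ± 0.45 in T+ and 28.7% ± 0.771 in mESC. SLC38 had the larger sum in each sorted group and SLC7 in mESC, and the 4 groups did not overlap in either share.

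For testing, a gene needed at least 1 TPM in at least 3 of the 12 libraries, which 35 of the 61 members met: 5 of SLC1, 1 of SLC3, 7 of SLC6, 8 of SLC7, 2 of SLC36, 9 of SLC38 and 3 of SLC43. The other 26 members stayed under 1 TPM in every library, the highest single value being 0.998 TPM for Slc1a2, a glutamate carrier of astrocytes, and 4 of them (Slc6a18, Slc7a12, Slc7a15 and Slc38a11) were listed at 0 throughout. Differences are given on the log2(TPM + 1) scale ± the standard error of a limma fit to all 12 libraries, and a call means a p under 0.05 after Benjamini-Hochberg adjustment over 16097 genes. That scale understates changes of genes near or below 1 TPM. Of the tested members, 4 reached 1 TPM in libraries of 1 group only, among them Slc6a4 in SOX17+ and Slc1a1 and Slc6a16 in mESC. Such members had to differ from the other groups to be tested at all, so their calls are part of the counts that follow but carry no weight as tests.

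In each sorted group SLC1, SLC6, SLC7 and SLC38 held members called higher and members called lower than mESC, while the calls in SLC3 and SLC36 were all lower. In SOX17+ cells 15 of 35 members were called higher (background of all tested genes 35.4%) and 13 lower (background 50.0%). The SOX17+/T+ cells had 14 called higher (background 34.9%) and 18 lower (background 50.3%), and T+ cells had 10 called higher (background 34.5%) and 19 lower (background 49.5%). Calls of at least 2-fold were made for 4 members higher (11.0% of all genes) and 7 lower (20.4%) in SOX17+, 2 higher (10.0%) and 8 lower (20.3%) in SOX17+/T+, and 4 higher (10.4%) and 8 lower (20.2%) in T+. The members called higher were 42.9%, 40.0% and 28.6% of those tested in SOX17+, SOX17+/T+ and T+, and those called lower 37.1%, 51.4% and 54.3%. The median difference of the 35 members was 0.05 in SOX17+, -0.25 in SOX17+/T+ and -0.37 in T+, beside -0.18, -0.19 and -0.17 for all tested genes. These 3 comparisons share the mESC libraries. Scaling shifted the balance: 41.5%, 40.9% and 41.0% of called genes were higher in SOX17+, SOX17+/T+ and T+ as deposited, and 52.4%, 53.2% and 53.4% after quantile normalization, which moved the median of all genes to 0.05, 0.06 and 0.07. Small differences from mESC are therefore to be read against that shift.

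**Figure D1:**
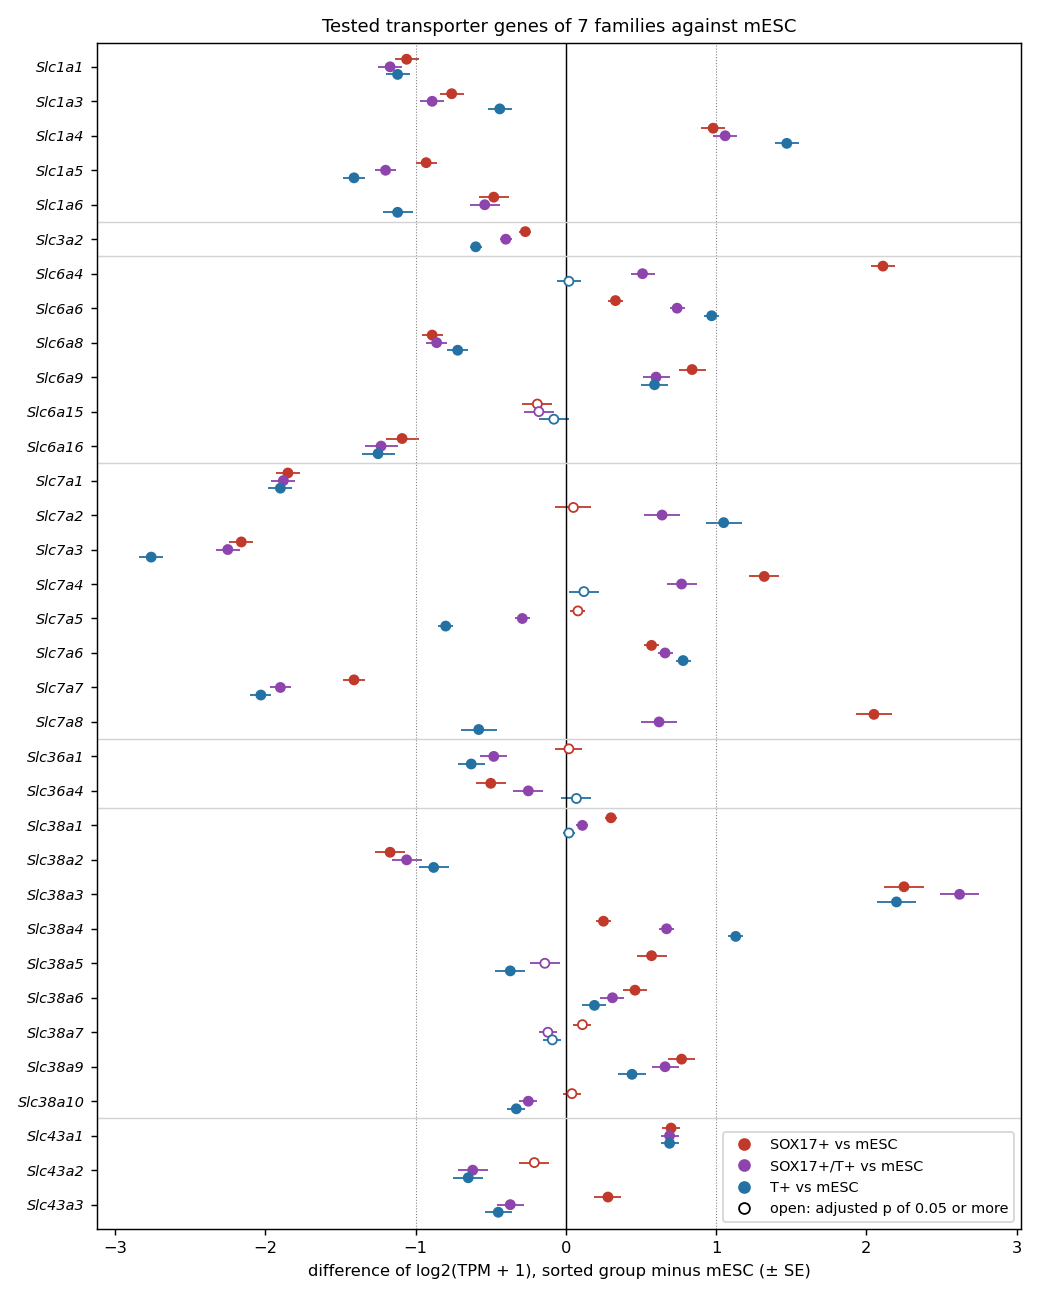
Differences of log2(TPM + 1) from mESC for 34 of the tested members in SOX17+ (red), SOX17+/T+ (purple) and T+ cells (blue), with the standard error as a bar and open circles where the adjusted p was 0.05 or more. Slc7a3 lies at -2.16, -2.25 and -2.76, Slc38a3 at 2.25, 2.62 and 2.20, and Slc7a8 spreads from 2.05 in SOX17+ to -0.58 in T+ cells.

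Among members with a group mean of at least 10 TPM, the cationic amino acid carrier Slc7a3 fell furthest against mESC. Slc7a3 (chrX:101079210-101086020), an arginine and lysine carrier, had 21.5, 27.3 and 24.8 TPM in SOX17+, 22.7, 25.6 and 21.0 in SOX17+/T+, 15.5, 16.2 and 15.8 in T+ and 116, 110.2 and 112 TPM in mESC libraries. Every sorted library lay below every mESC library, and T+ libraries lay below all other sorted ones. The differences from mESC were -2.16 ± 0.08 in SOX17+, -2.25 ± 0.08 in SOX17+/T+ and -2.76 ± 0.08 in T+ (adjusted p 1.82e-11, 1.30e-11 and 1.78e-12). Slc7a1 (chr5:148327410-148399904), the widely expressed arginine carrier, had 11.8, 15.3 and 13.7 TPM in SOX17+, 12.5, 14.4 and 13.1 in SOX17+/T+, 12.7, 13.8 and 12.7 in T+ and 52.4, 51.1 and 50.7 TPM in mESC libraries. It fell by 1.85, 1.88 and 1.90 (SE 0.08 each) in SOX17+, SOX17+/T+ and T+ cells against mESC, and the sorted groups overlapped. Slc7a2, an arginine carrier known from liver and macrophages, was low, at 1.01 ± 0.248 TPM in SOX17+, 2.03 ± 0.334 in SOX17+/T+, 3.04 ± 0.505 in T+ and 0.939 ± 0.133 TPM in mESC. It was called higher than mESC in SOX17+/T+ (0.64 ± 0.12) and T+ (1.05 ± 0.12) and not in SOX17+ (0.05 ± 0.12). After quantile normalization Slc7a2 was called higher in SOX17+ as well (0.49). Together the 3 genes gave 39.1 ± 4.47 TPM in SOX17+, 38.4 ± 3.22 in SOX17+/T+, 32.0 ± 1.26 in T+ and 165 ± 3.84 TPM in mESC.

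The neutral amino acid exchangers of SLC1 moved in opposite directions. Slc1a4 (chr11:20302180-20332713), which carries alanine, serine and cysteine, had 41.5, 42.8 and 34.5 TPM in SOX17+, 43.2, 43.2 and 39.0 in SOX17+/T+, 61.1, 56.4 and 50.8 in T+ and 19.1, 20.4 and 19.2 TPM in mESC libraries. All sorted libraries lay above mESC and T+ above the rest, with differences from mESC of 0.98 ± 0.08 in SOX17+, 1.06 ± 0.08 in SOX17+/T+ and 1.47 ± 0.08 in T+. Slc1a5 (chr7:16781340-16798274), the glutamine exchanger, had 26.4, 29.3 and 27.8 TPM in SOX17+, 24.5, 23.1 and 21.2 in SOX17+/T+, 20.6, 20.5 and 18.1 in T+ and 56.0, 54.6 and 51.5 TPM in mESC libraries. It fell by 0.93, 1.20 and 1.41 (SE 0.07 each) against mESC, and no sorted library reached an mESC one. Their sum was 67.5 ± 4.90 TPM in SOX17+, 64.7 ± 3.93 in SOX17+/T+, 75.8 ± 6.44 in T+ and 73.6 ± 2.49 TPM in mESC, and the Slc1a5 share of it was 41.4% ± 2.92 in SOX17+, 35.4% ± 0.722 in SOX17+/T+, 26.0% ± 0.757 in T+ and 73.4% ± 1.00 in mESC. Of the glutamate carriers of the family, Slc1a3 and Slc1a6 were called lower than mESC in all 3 sorted groups, neither of them above 6.18 TPM in any library. Slc1a1 was at 0.195 ± 0.00952 TPM in SOX17+, 0.106 ± 0.0282 in SOX17+/T+, 0.150 ± 0.0281 in T+ and 1.50 ± 0.29 TPM in mESC, and it was tested only through its mESC libraries. Its locus overlaps Gm5822 on the opposite strand, whose mean level was 17.6 TPM in SOX17+, 16.9 in SOX17+/T+, 18.6 in T+ and 8.46 TPM in mESC.

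A similar change of partners was seen in the light chains that export cationic for neutral amino acids. Slc7a7 (chr14:54369442-54417780) had 41.3, 39.8 and 36.9 TPM in SOX17+, 29.3, 25.5 and 28.5 in SOX17+/T+, 27.2, 23.0 and 25.8 in T+ and 108, 101 and 109 TPM in mESC libraries. SOX17+ libraries lay between mESC and the other sorted groups, and the differences from mESC were -1.41 ± 0.07 in SOX17+, -1.90 ± 0.07 in SOX17+/T+ and -2.03 ± 0.07 in T+. The gene overlaps Oxa1l on the opposite strand by 232 bases. Oxa1l averaged more in the sorted groups (99.3 TPM in SOX17+, 103 in SOX17+/T+, 112 in T+ and 65.6 TPM in mESC). No source used here says whether counting used strand, so reads within those 232 bases may have counted for either gene. Slc7a6, its close relative, was at 45.5 ± 1.46 TPM in SOX17+, 48.6 ± 3.03 in SOX17+/T+, 52.9 ± 0.497 in T+ and 30.3 ± 0.68 TPM in mESC, higher than mESC by 0.57, 0.66 and 0.78 (SE 0.05 each). The Slc7a7 share of the pair was 46.3% ± 1.38 in SOX17+, 36.4% ± 2.11 in SOX17+/T+, 32.3% ± 1.72 in T+ and 77.8% ± 0.455 in mESC. These shares are given as descriptions, without a test.

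**Figure D2:**
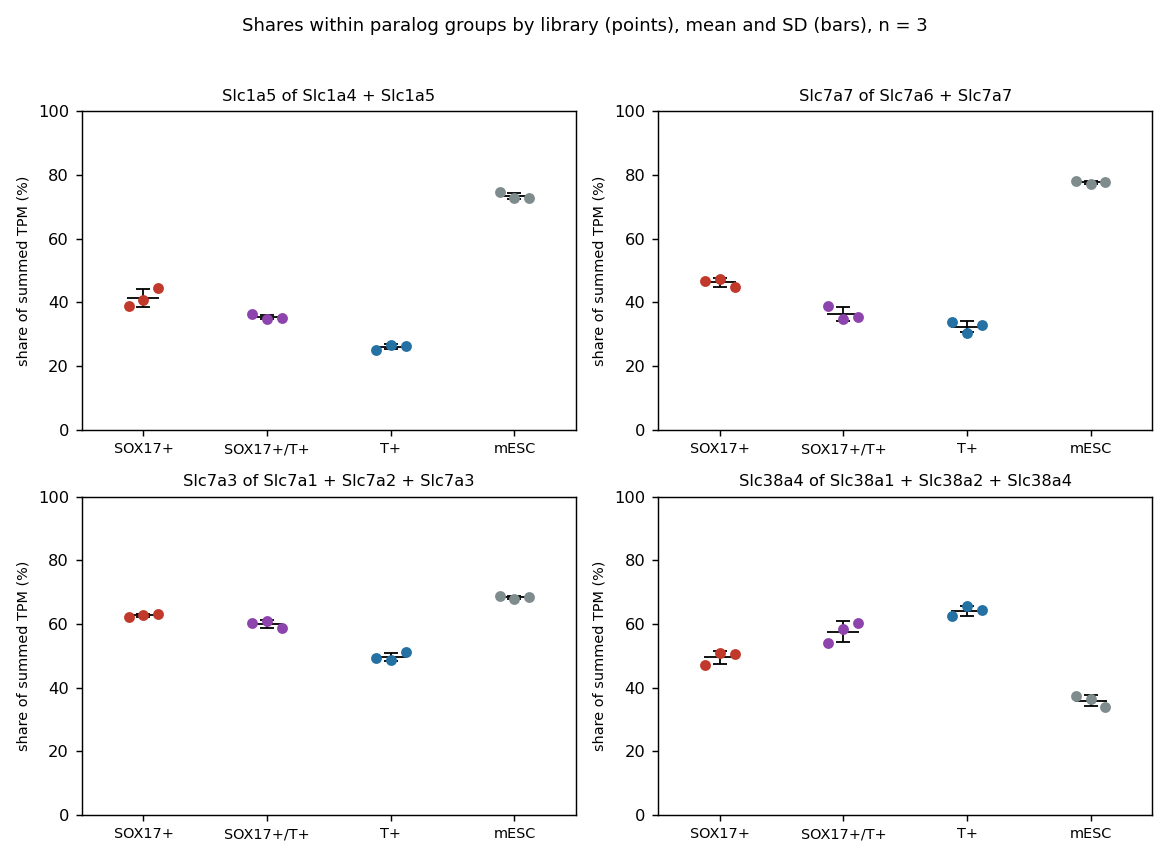
Share of each named gene in the summed TPM of its paralog group, in percent, for each library (points) with mean and SD (bars, n = 3), for SOX17+, SOX17+/T+, T+ and mESC from left to right. Slc1a5 and Slc7a7 hold 73.4% and 77.8% in mESC and less than 50% in every sorted library, and Slc38a4 has its highest share, 64.2%, in T+ cells.

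The glutamine and alanine importers Slc38a1, Slc38a2 and Slc38a4 lie near each other on chromosome 15 and did not move together. Slc38a2 (chr15:96687392-96699730), which is known to be induced when amino acids are withdrawn, had 69.2, 57.8 and 60.0 TPM in SOX17+, 74.3, 64.5 and 63.4 in SOX17+/T+, 85.5, 71.4 and 73.2 in T+ and 135, 131 and 158 TPM in mESC libraries. It fell by 1.17, 1.06 and 0.88 (SE 0.10 each) in SOX17+, SOX17+/T+ and T+ against mESC. Its SOX17+ against T+ difference of -0.30 ± 0.10 lost its call without SOX17+ library 2 or 3 or T+ library 1 (-0.22 to -0.27). Slc38a4 (chr15:96994820-97055956), an importer of neutral and cationic amino acids whose mouse gene is imprinted, had 131, 135 and 138 TPM in SOX17+, 166, 185 and 194 in SOX17+/T+, 248, 253 and 245 in T+ and 118, 110.4 and 112 TPM in mESC libraries. No groups overlapped, and the order was T+ over SOX17+/T+ over SOX17+ over mESC, with differences from mESC of 0.25 ± 0.05 in SOX17+, 0.67 ± 0.05 in SOX17+/T+ and 1.13 ± 0.05 in T+. Slc38a1 stayed between 59.8 and 79.2 TPM in all libraries and was called higher than mESC in SOX17+ (0.30 ± 0.04). In SOX17+/T+ its call (0.11 ± 0.04) was lost without SOX17+/T+ library 1 or 2 or mESC library 3 (0.09 to 0.10). The gap between Slc38a2 and Slc38a4 is 295 kb, and Slc38a1 lies 44.5 kb from Slc38a2.

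Slc38a3 (chr9:107650634-107669530), the system N glutamine carrier of liver, kidney and brain, rose most in fold among members above 10 TPM. It had 10.9, 8.18 and 8.57 TPM in SOX17+, 14.2, 11.5 and 10.9 in SOX17+/T+, 10.0, 7.53 and 8.99 in T+ and 1.41, 1.08 and 0.926 TPM in mESC libraries. All 9 sorted libraries lay above mESC, by 2.25 ± 0.13 in SOX17+, 2.62 ± 0.13 in SOX17+/T+ and 2.20 ± 0.13 in T+ (adjusted p 2.01e-09, 4.26e-10 and 2.64e-09). The sorted groups were hard to separate. The SOX17+ against SOX17+/T+ call (-0.37 ± 0.13) was lost without SOX17+ library 2 or 3, SOX17+/T+ library 1 or 2, T+ library 3 or mESC library 2 (-0.26 to -0.41), and the SOX17+/T+ against T+ call (0.42 ± 0.13) without SOX17+/T+ library 1 or 2 or T+ library 2 or 3 (0.31 to 0.46). Both calls were also lost at a pseudocount of 0.1 (-0.40 and 0.46) and without the filter. Among the lysosomal members of the family, Slc38a9, the arginine sensor upstream of mTORC1, was at 4.47 ± 0.377 TPM in SOX17+, 4.07 ± 0.279 in SOX17+/T+, 3.37 ± 0.409 in T+ and 2.21 ± 0.108 TPM in mESC and was called higher in all 3 sorted groups. Slc38a7, a lysosomal glutamine exporter, was not called against mESC in any of them, but was in SOX17+ with median-of-ratios scaling (0.26) and quantile normalization (0.30).

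**Figure D3:**
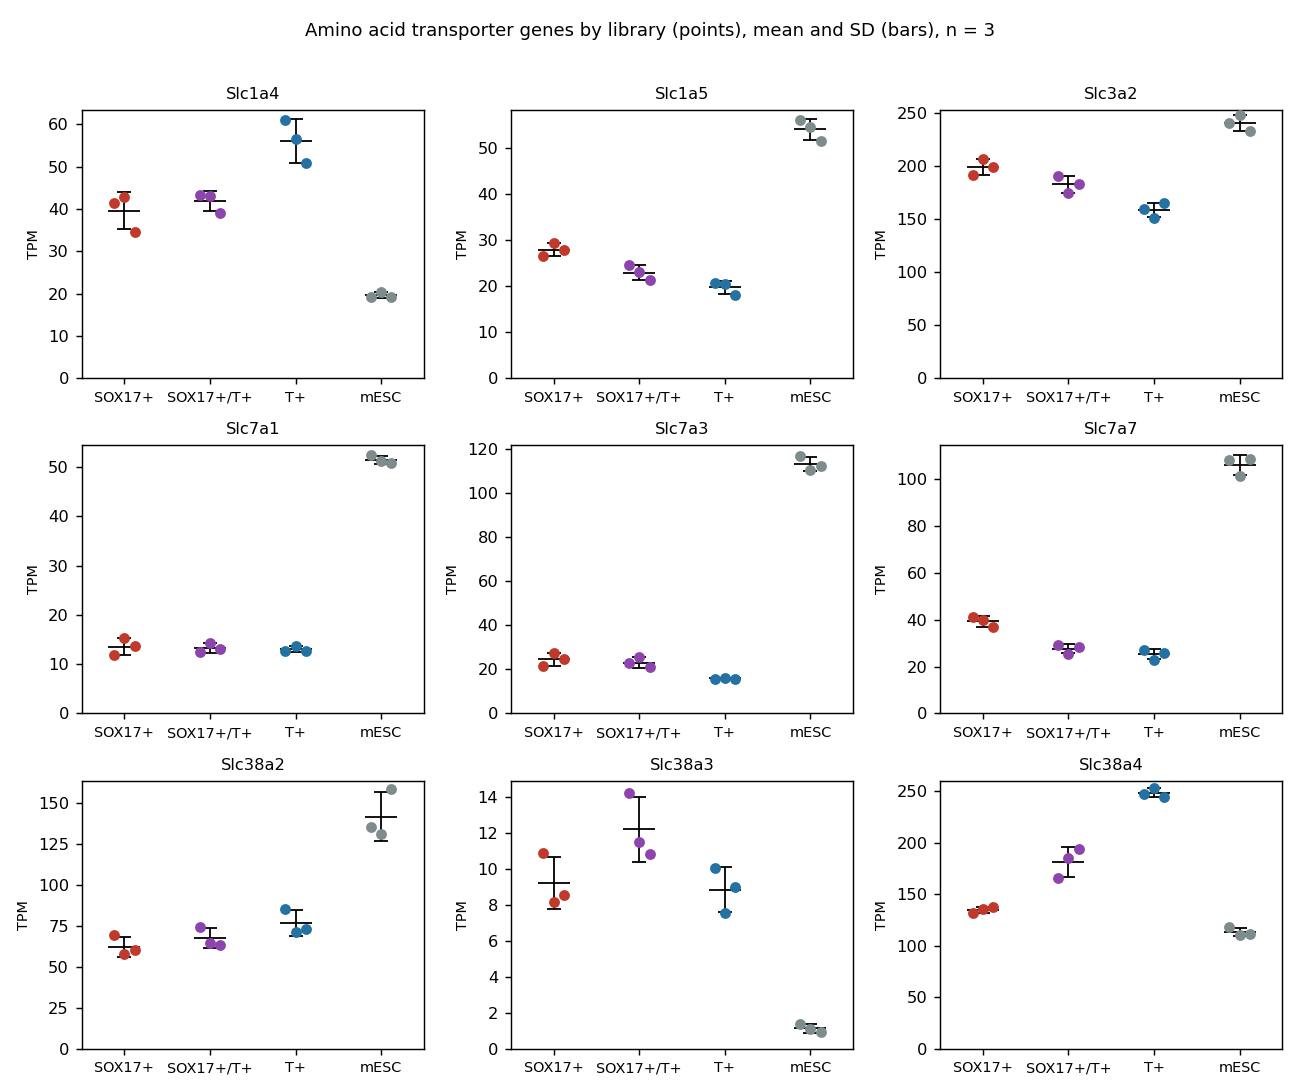
TPM in each library (points) with mean and SD (bars, n = 3) for 9 members in SOX17+, SOX17+/T+, T+ and mESC, each axis starting at 0. Slc1a4, Slc38a3 and Slc38a4 have their lowest values in mESC, and Slc1a5, Slc3a2, Slc7a1, Slc7a3, Slc7a7 and Slc38a2 their highest.

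Of the heavy chains, only Slc3a2 (chr19:8706882-8723369), the CD98 heavy chain, was measured above the filter. It had the highest mean of all members over the 12 libraries, although Slc38a4 exceeded it in T+ cells. It had 192, 207 and 199 TPM in SOX17+, 191, 174 and 183 in SOX17+/T+, 159.6, 152 and 165 in T+ and 241, 248 and 233 TPM in mESC libraries. Each sorted library lay below mESC and T+ below all others, with differences from mESC of -0.27 ± 0.04 in SOX17+, -0.40 ± 0.04 in SOX17+/T+ and -0.60 ± 0.04 in T+. After quantile normalization these became 0.05, 0.01 and -0.20, so the direction against mESC in SOX17+ and SOX17+/T+ depended on the scaling. Slc3a1, the heavy chain of the kidney cystine carrier, was listed at 0.119, 0.114 and 0.109 TPM in SOX17+, 0.0637, 0.0124 and 0.134 in SOX17+/T+, 0.0894, 0.0687 and 0.0287 in T+ and 0, 0.0871 and 0 TPM in mESC libraries, and its partner Slc7a9 reached 0.348 TPM at most. The 6 light chains known to pair with Slc3a2 (Slc7a5, Slc7a6, Slc7a7, Slc7a8, Slc7a10 and Slc7a11) summed to 271 ± 8.73 TPM in SOX17+, 216 ± 2.65 in SOX17+/T+, 175 ± 2.65 in T+ and 306 ± 6.94 TPM in mESC. That sum was 1.36 ± 0.0269 times the Slc3a2 level in SOX17+, 1.19 ± 0.0589 in SOX17+/T+, 1.10 ± 0.064 in T+ and 1.27 ± 0.066 in mESC. Slc7a11, the cystine importer whose promoter window is printed above, did not exceed 0.627 TPM in any library.

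Among the sorted groups, more transporter genes were called higher than lower in SOX17+ cells, mostly by less than 2-fold. The members' summed TPM overlapped between SOX17+ and T+ libraries (1107 to 1134.5 and 1088 to 1118) and lay below SOX17+ in SOX17+/T+ (1072 to 1089). The mean sums of SLC1, SLC6 and SLC38 were lower in SOX17+ than in T+ (SLC38 368 against 463 TPM). Those of SLC3, SLC7, SLC36 and SLC43 were higher (SLC7 315 against 208 TPM). Against T+, 19 of the 35 members were called higher in SOX17+ (background 25.4%) and 8 lower (background 29.0%). At 2-fold or more, 3 were higher (4.95% of all genes) and 1 lower (3.70%). The SOX17+/T+ cells had 9 called higher than T+ (background 12.6%) and 6 lower (background 15.8%), and SOX17+ cells had 14 called higher than SOX17+/T+ (background 19.8%) and 4 lower (background 16.8%). The members' median difference was 0.25 for SOX17+ against T+, 0.03 for SOX17+/T+ against T+ and 0.12 for SOX17+ against SOX17+/T+, beside -0.03, -0.03 and 0.00 for all tested genes. Of the members called higher in SOX17+ than in T+, 5 belong to SLC7 (8 tested), 6 to SLC38 (9 tested), 2 each to SLC1, SLC6 and SLC43, and 1 each to SLC3 and SLC36. The comparisons share libraries, so their counts are not independent of each other.

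**Figure D4:**
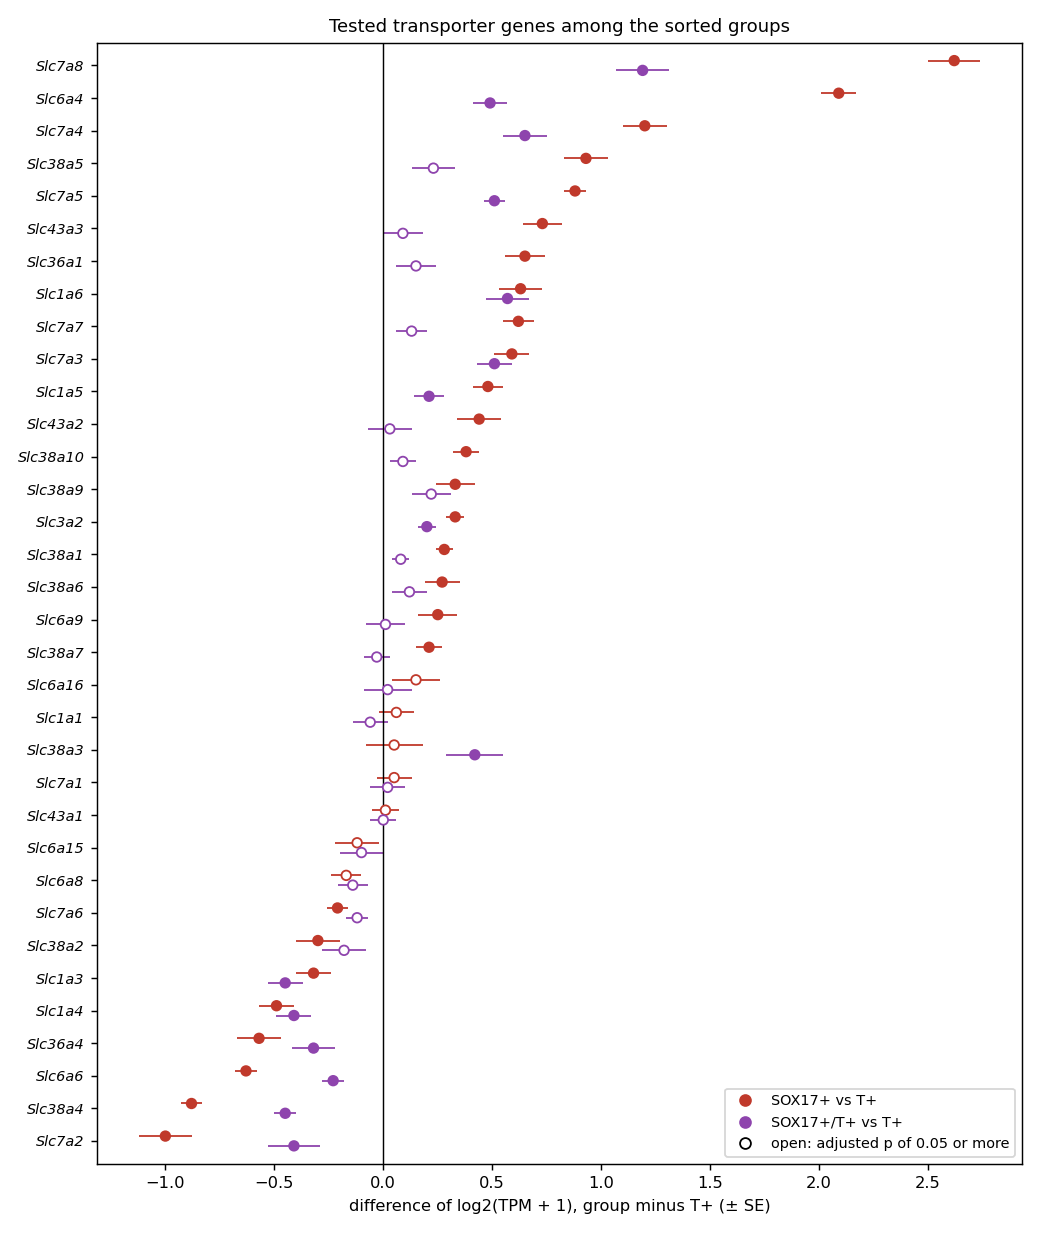
Differences of log2(TPM + 1) from T+ for 34 of the tested members in SOX17+ (red) and SOX17+/T+ cells (purple), with the standard error as a bar, ordered by the SOX17+ value; open circles had an adjusted p of 0.05 or more. Slc7a8 lies at 2.62 and 1.19 and Slc6a4 at 2.09 and 0.49 at the top, and Slc38a4 at -0.88 and -0.45 near the bottom.

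A stepwise order was found for 9 members, called in the same direction in both steps: 6 were highest in SOX17+ and lowest in T+ cells (Slc1a5, Slc3a2, Slc6a4, Slc7a4, Slc7a5 and Slc7a8) and 3 ran the other way (Slc6a6, Slc7a2 and Slc38a4). The share of all tested genes with such an order was not determined, so the count is a description. Slc6a4 reached 1 TPM in SOX17+ libraries only, so its order carries no weight as a test. For 3 of the 9 a step rested on single libraries. The SOX17+ against SOX17+/T+ step of Slc3a2 (0.12 ± 0.04) lost its call without SOX17+ library 2 or 3 or SOX17+/T+ library 2 or 3 (0.09 to 0.13). It was also lost without the filter, with either other scaling (0.12 and 0.04), without trend and robust, and in a fit of the 6 libraries alone. In the SOX17+/T+ against T+ step, Slc1a5 (0.21 ± 0.07) lost it without SOX17+/T+ library 1 or 2 or T+ library 3 (0.15 to 0.20), and also without the filter and in the 6 libraries alone. Slc7a2 (-0.41 ± 0.12) lost it without SOX17+/T+ library 2 or 3 or T+ library 1 or 2 (-0.34 to -0.40), and without the filter.

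Slc7a5, Slc7a8, Slc6a4, Slc7a4 and Slc6a6 were chosen for a closer view after their values were seen. Slc7a5, the main importer of leucine and other large neutral amino acids, had 169, 189.6 and 175 TPM in SOX17+, 139, 143 and 130.2 in SOX17+/T+, 92.4, 102 and 94.0 in T+ and 170.3, 166 and 169 TPM in mESC libraries. SOX17+ and mESC libraries overlapped, while T+ lay lowest: SOX17+ exceeded T+ by 0.88 ± 0.05 (adjusted p 7.60e-09) and SOX17+/T+ exceeded T+ by 0.51 ± 0.05. Against mESC the SOX17+/T+ difference of -0.29 ± 0.05 became -0.13 (no longer called) after median-of-ratios scaling, and 0.08 after quantile normalization. The SOX17+ difference from mESC (0.08 ± 0.05) was not called as deposited. It was called higher after median-of-ratios scaling (0.23) and quantile normalization (0.36). Slc7a8, another light chain that carries large neutral amino acids, had 8.32, 7.12 and 8.27 TPM in SOX17+, 2.90, 1.70 and 2.40 in SOX17+/T+, 0.359, 0.361 and 0.626 in T+ and 1.11, 1.10 and 1.24 TPM in mESC libraries. No groups overlapped, and SOX17+ exceeded T+ by 2.62 ± 0.12 (adjusted p 1.52e-09), the largest difference of any tested member between sorted groups at a pseudocount of 1. Slc7a7 and Slc7a8 lie 304 kb apart on chromosome 14.

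Slc6a4, the serotonin carrier, had 3.46, 3.73 and 3.96 TPM in SOX17+, 0.634, 0.523 and 0.516 in SOX17+/T+, 0, 0.146 and 0.194 in T+ and 0.134, 0.0875 and 0.055 TPM in mESC libraries. Only SOX17+ libraries exceeded 1 TPM, and the gene entered the test through them, so its difference from T+ (2.09 at a pseudocount of 1 and 4.30 at 0.1) is a description. Slc7a4, a member of the cationic group whose substrate is not settled, had 4.85, 3.85 and 3.85 TPM in SOX17+, 2.56, 2.42 and 2.61 in SOX17+/T+, 0.987, 1.45 and 1.33 in T+ and 1.15, 1.02 and 1.02 TPM in mESC libraries. T+ and mESC overlapped, and SOX17+ exceeded T+ by 1.20 ± 0.10. The SOX17+ libraries in which these low-level genes were highest were also those with the highest summed erythroid, endothelial and extraembryonic endoderm markers given above, and the part of such cells was not tested. Slc6a9, the glycine carrier that erythroid cells also use, was at 7.10 ± 0.33 TPM in SOX17+, 5.88 ± 0.76 in SOX17+/T+, 5.81 ± 0.606 in T+ and 3.52 ± 0.219 TPM in mESC. Its SOX17+ against T+ call (0.25 ± 0.09) was lost without SOX17+ library 1 or 2 or T+ library 1 or 3 (0.19 to 0.26).

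In the opposite direction, Slc6a6, the taurine carrier, had 72.7, 64.1 and 66.6 TPM in SOX17+, 89.3, 92.0 and 89.2 in SOX17+/T+, 108, 111 and 98.0 in T+ and 54.3, 53.8 and 52.6 TPM in mESC libraries. No groups overlapped, and SOX17+ lay below T+ by 0.63 on the log2 scale (difference -0.63 ± 0.05, adjusted p 3.26e-07). Slc38a4 showed the same order, with a SOX17+ against T+ difference of -0.88 ± 0.05. The Slc38a4 share of Slc38a1, Slc38a2 and Slc38a4 was 49.5% ± 2.16 in SOX17+, 57.6% ± 3.20 in SOX17+/T+, 64.2% ± 1.55 in T+ and 35.9% ± 1.85 in mESC.

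Other members differed from mESC with little separation among sorted groups. Slc6a8, the creatine carrier, was at 39.8 ± 1.42 TPM in SOX17+, 40.8 ± 4.90 in SOX17+/T+, 45.0 ± 2.95 in T+ and 74.6 ± 2.56 TPM in mESC, lower than mESC by 0.89, 0.86 and 0.72 (differences -0.89, -0.86 and -0.72, SE 0.07 each). Its SOX17+/T+ against T+ difference of -0.14 was not called without the pairing of libraries by replicate number and was called with it (adjusted p 0.047), as was that of Slc38a9 (0.22, adjusted p 0.032). Slc43a1, a facilitator of large neutral amino acids, was higher than mESC by 0.70, 0.69 and 0.69 (SE 0.06 each) and its sorted groups overlapped. Slc6a15, a carrier of branched-chain amino acids and proline, was called in none of the 6 comparisons.

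The remaining tested members were carriers of lower or steadier level. Slc36a1, the proton-coupled carrier of lysosomes, was at 6.29 ± 0.204 TPM in SOX17+, 4.18 ± 0.755 in SOX17+/T+, 3.64 ± 0.225 in T+ and 6.20 ± 0.383 TPM in mESC, with SOX17+ not called against mESC (0.02 ± 0.09) and called above T+ (0.65 ± 0.09). Slc36a4, its relative for proline and tryptophan, had the other order among sorted groups, at 1.54 ± 0.241 TPM in SOX17+, 2.03 ± 0.19 in SOX17+/T+, 2.78 ± 0.189 in T+ and 2.60 ± 0.336 TPM in mESC, with a SOX17+ against T+ difference of -0.57 ± 0.10. Its SOX17+/T+ against T+ call (-0.32 ± 0.10) was lost without SOX17+/T+ library 1 or T+ library 2 or 3 (-0.27 to -0.33). Slc43a2, a facilitator of large neutral amino acids, was at 8.90 ± 0.992 TPM in SOX17+, 6.43 ± 0.279 in SOX17+/T+, 6.34 ± 1.07 in T+ and 10.4 ± 0.407 TPM in mESC, and was called lower than mESC in SOX17+/T+ (-0.62 ± 0.10) and T+ (-0.65 ± 0.10). Slc38a10 was at 50.3 ± 3.10 TPM in SOX17+, 40.9 ± 0.835 in SOX17+/T+, 38.6 ± 3.16 in T+ and 48.7 ± 1.99 TPM in mESC, and its SOX17+/T+ difference from mESC of -0.25 became 0.04 after quantile normalization. Slc38a6 was called higher than mESC in all 3 sorted groups (0.46, 0.31 and 0.19 in SOX17+, SOX17+/T+ and T+, SE 0.08 each). The T+ call was lost without T+ library 2 or 3 or mESC library 2 or 3 (0.16 to 0.20), and its SOX17+ against T+ call (0.27 ± 0.08) without SOX17+ library 3 (0.21). Slc38a5 and Slc43a3 were called higher than mESC in SOX17+ (0.57 ± 0.10 and 0.28 ± 0.09) and lower in T+ (-0.37 ± 0.10 and -0.45 ± 0.09), where the Slc38a5 call was lost after quantile normalization (-0.11). Slc6a16, which has no settled substrate, was at 0.436 ± 0.0756 TPM in SOX17+, 0.316 ± 0.201 in SOX17+/T+, 0.293 ± 0.112 in T+ and 2.06 ± 0.196 TPM in mESC.

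The wider amino acid programme moved against mESC as follows, with list members called in SOX17+, SOX17+/T+ and T+ in turn. Over all tested genes, 35.4%, 34.9% and 34.5% were called higher and 50.0%, 50.3% and 49.5% lower, and against these shares the counts of each list are to be read. Of 33 genes of the ATF4 programme, 4, 4 and 4 rose and 27, 27 and 29 fell, with median differences of -0.80, -0.96 and -1.02 (-0.18, -0.19 and -0.17 over all tested genes). Nupr1, a stress-induced chromatin protein, was at 0.327 ± 0.308 TPM in SOX17+, 0.301 ± 0.175 in SOX17+/T+, 0.443 ± 0.088 in T+ and 42.9 ± 5.68 TPM in mESC, and Cebpb, a C/EBP transcription factor, at 2.66 ± 0.332 TPM in SOX17+, 4.77 ± 0.399 in SOX17+/T+, 4.35 ± 1.05 in T+ and 49.7 ± 4.63 TPM in mESC. Cth, the enzyme that makes cysteine from cystathionine, was at 12.5 ± 1.59 TPM in SOX17+, 16.8 ± 0.817 in SOX17+/T+, 17.5 ± 1.64 in T+ and 123 ± 4.27 TPM in mESC. Ddit4, an inhibitor of mTORC1, rose, at 214 ± 33.2 TPM in SOX17+, 371 ± 58.0 in SOX17+/T+, 466 ± 71.1 in T+ and 65.6 ± 2.05 TPM in mESC. Atf4 itself, named after its values were seen, was at 90.5 ± 8.15 TPM in SOX17+, 77.3 ± 11.0 in SOX17+/T+, 62.1 ± 4.56 in T+ and 158 ± 8.57 TPM in mESC. Against T+, 16 of the 33 were called higher and 6 lower in SOX17+ (25.4% and 29.0% of all tested genes), among them Trib3, a pseudokinase induced by ATF4 (1.35 ± 0.20), Psph, the last enzyme of serine synthesis (1.04 ± 0.09), and Ddit4 (-1.12 ± 0.14).

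All 15 genes of glutathione and cystine use passed the filter, and 14 fell in each sorted group against mESC, where 50.0%, 50.3% and 49.5% of all tested genes were called lower. The remaining gene, named after its values were seen, was not called and was Gclm in SOX17+ (-0.84 ± 0.38) and SOX17+/T+ (-0.76 ± 0.38) and Ggt7 in T+ (0.03 ± 0.09). Against T+, 7 of the 15 were called higher and 4 lower in SOX17+ (all tested genes 25.4% and 29.0%). Gpx4, the peroxidase that repairs lipid peroxides, was at 220.2 ± 4.16 TPM in SOX17+, 209 ± 6.81 in SOX17+/T+, 215 ± 2.86 in T+ and 681 ± 12.3 TPM in mESC. Of 21 enzymes of glutamine, arginine, proline and branched-chain use, 7, 4 and 4 rose and 13, 14 and 15 fell (all tested genes 35.4%, 34.9% and 34.5% higher, and 50.0%, 50.3% and 49.5% lower). Bcat1, the cytosolic branched-chain aminotransferase, was at 19.8 ± 1.32 TPM in SOX17+, 35.5 ± 0.539 in SOX17+/T+, 55.8 ± 2.21 in T+ and 285 ± 4.96 TPM in mESC, and Ass1, an enzyme of arginine synthesis, at 48.0 ± 3.502 TPM in SOX17+, 67.8 ± 4.21 in SOX17+/T+, 48.6 ± 5.49 in T+ and 319 ± 9.13 TPM in mESC. Glul, glutamine synthetase, differed among the sorted groups, at 388 ± 19.4 TPM in SOX17+, 202 ± 7.80 in SOX17+/T+, 197 ± 8.53 in T+ and 315 ± 4.10 TPM in mESC. Against T+, 12 of the 21 were called higher in SOX17+ and 4 lower (all tested genes 25.4% and 29.0%).

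Of 36 genes that sense amino acids for mTORC1, 18, 18 and 17 were called higher and 13, 14 and 15 lower than mESC (all tested genes 35.4%, 34.9% and 34.5% higher, and 50.0%, 50.3% and 49.5% lower). Castor1 encodes an arginine sensor, and Castor2 is a close relative of it. Castor2 was at 22.3 ± 1.44 TPM in SOX17+, 10.5 ± 0.394 in SOX17+/T+, 3.94 ± 0.296 in T+ and 3.06 ± 0.249 TPM in mESC, and Castor1 at 12.5 ± 0.292 TPM in SOX17+, 15.0 ± 1.45 in SOX17+/T+, 16.7 ± 0.882 in T+ and 41.1 ± 0.769 TPM in mESC. Against T+, 9 of the 36 were called higher and 7 lower in SOX17+ (all tested genes 25.4% and 29.0%). A further list of 23 amino acid and peptide carriers outside the 61 members includes the SLC6 genes Slc6a20a and Slc6a20b, which were not tested. Of the 23, 15 were tested, of which 8, 7 and 5 were called higher and 6, 7 and 8 lower than mESC, against the same shares of all genes. Against T+, 8 were called higher and 2 lower in SOX17+ (all tested genes 25.4% and 29.0%), led by Slc32a1, the vesicular GABA and glycine carrier (2.98 ± 0.16), Slc16a10, an exporter of aromatic amino acids (1.62 ± 0.08), and Mfsd12, a lysosomal cysteine carrier (1.55 ± 0.07). Of 8 partners and regulators, 6 were tested, and 2 rose and 4 fell in each sorted group against mESC. Sgk1, a kinase that keeps several carriers at the membrane, was at 16.0 ± 1.60 TPM in SOX17+, 14.6 ± 2.79 in SOX17+/T+, 18.7 ± 4.61 in T+ and 253 ± 9.52 TPM in mESC. The feeder fibroblast, erythroid, endothelial and extraembryonic markers given above also differ between these groups, and their part was not tested. The lists share Chac1, Cth and Sesn2 with the ATF4 programme and were chosen with earlier results of these data known.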

How the data were processed

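Poly(A) RNA of 12 libraries was sequenced as 100 bp paired-end reads after a stranded preparation from 500 ng of total RNA, per the labels' protocols, and the number of fragments per library is stated only as a minimum. Tools named in the submitters' processing notes are cutadapt, STAR and StringTie (no version is given), with mm10 and GRCm38 as builds. The authors deposited TPM values in 1 table. The depth behind a single TPM value is unknown, and so is the strand setting of the counting. Empty cells (282) counted as 0, and 11 genes split over several rows were summed, with no member among either. An exact 0 can be a failed estimate.

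After a filter for 1 TPM or more in 3 or more libraries, log2(TPM + 1) was fitted with limma 3.58.1 (R 4.3.3, eBayes with trend and robust) to all 12 libraries with 1 mean per group and 8 residual degrees of freedom. Its 2-sided test was adjusted by Benjamini-Hochberg over all tested genes in each of 6 comparisons, and was tested on simulated data. The labels do not say whether replicates were separate cultures, and p-values reflect only the spread of these samples, which may be technical. Libraries of SOX17+/T+ and T+ with the same replicate number deviated together (r 0.149 to 0.242 across genes), so the numbers were taken to pair these 2 groups. For SOX17+ with SOX17+/T+ the same-number r was 0.046 to 0.224. The main fit did not use the pairing, and an alternative fit with a block for replicate number applied it to all 12 libraries. The alternatives were a pseudocount of 0.1, no filter, a filter of 5 TPM, median-of-ratios and quantile scaling, the 6 compared libraries alone, eBayes without trend and robust, a replicate block and leaving out each library.

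The families and gene lists were chosen with earlier results of these data known, and the members within the families by symbol. Per-library values are given for members with a group mean of at least 10 TPM and a call of at least 2-fold, and for the heavy chains. They are also given for Slc7a5, Slc7a8, Slc6a4, Slc7a4 and Slc6a6, which did not meet that rule and were chosen after their values were seen. Genes named from a list are some of those among its 4 called genes with the largest difference in at least 1 comparison. Coordinates are those of the deposited table (GRCm38), promoter windows those of RefSeq. A single member is counted in the totals and is not reported here by name or value.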

Additional observations from a re-analysis of the deposited data

Results flagged for a closer look

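For 6 members the change against mESC differed between SOX17+ and T+ cells, by at least 2-fold or in opposite called directions, and the difference equals the SOX17+ against T+ contrast, called for all 6 by limma after adjustment over all genes. Since that contrast also picked them, its values are a description. The share of all tested genes that meet this rule was not determined, so the count of members is a description too. It was 2.62 for Slc7a8, which was higher than mESC in SOX17+ (2.05) and lower in T+ (-0.58), although the T+ call was lost after quantile normalization (-0.13). It was 0.93 for Slc38a5, a carrier of glutamine and glycine, with 0.57 in SOX17+ and -0.37 in T+, the T+ value not being called after quantile normalization (-0.11). For Slc43a3, a nucleobase and fatty acid facilitator, it was 0.73, with 0.28 in SOX17+ and -0.45 in T+. For Slc6a4 and Slc7a4 it was 2.09 and 1.20, both higher than mESC in SOX17+ and not called in T+. Slc6a4 reached 1 TPM in SOX17+ libraries only. For Slc7a2 it was -1.0, not called in SOX17+ and higher in T+ (1.05). After quantile normalization the uncalled values were called higher than mESC: Slc6a4 (0.20) and Slc7a4 (0.55) in T+, and Slc7a2 (0.49) in SOX17+. The mESC libraries are shared by both contrasts.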

How the results depend on the processing

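Of 149 member differences called over the 6 comparisons, 128 kept their call and direction in every alternative run that tested the member. Of the 149, 12 lost the call when some single library was left out. Differences without a result in a run were not counted as lost. Only 32 of 35 members were tested when an mESC library was left out, and 34 when a SOX17+ library was. Quantile normalization turned 5 called differences from mESC: Slc3a2 to 0.05 in SOX17+ and 0.01 in SOX17+/T+, and in SOX17+/T+ also Slc38a10 to 0.04, Slc7a5 to 0.08 and Slc36a4 to 0.07, and it ended 6 more calls. It also brought 13 calls that the main fit lacked. The cause was not tested. With a filter of 5 TPM, 25 members were tested and 8 were called lower in SOX17+ than in mESC, against 13 of 35. The replicate block ended no member call. It brought 7 more, and members called higher in SOX17+/T+ than in T+ numbered 10 with the block and 9 without it, and lower 7 and 6. Without filter, 57 members entered and 7 calls were lost, all between sorted groups (Slc38a3 in 2 comparisons, and Slc1a5, Slc3a2, Slc6a9, Slc7a2 and Slc38a2). Slc36a4 lost its SOX17+/T+ call against mESC without SOX17+/T+ library 1 or mESC library 2 or 3 (-0.18 to -0.25). Depth is not given per library, so values under 1 TPM carry an unknown counting error, and the stated pseudocount sets their fold change.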
